A study of Mus musculus with 16 samples.

Results

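The genes described here are 28 mouse genes of cholesterol synthesis and its control, taken as the rows of the deposited count table whose Ensembl identifiers carry the listed symbols, 28 of 55359 identifiers in all. They comprise 21 enzymes from acetyl-CoA to cholesterol and the prenyl side branch, 4 genes of the sterol sensor, and 3 further genes known as targets of SREBP2. Total RNA was sequenced from the ileum and the duodenum of adult male C57BL/6N mice on a high fat diet, with tissue taken 5 weeks after tamoxifen. Whether control mice received tamoxifen is not stated separately, and if they did not, genotype and tamoxifen cannot be told apart. Mutant mice, here called M136, M167, M168 and M177, were Neurog3f/f; Villin-CreERT2, that is, floxed for Neurog3 and carrying a recombinase that tamoxifen activates and that the Villin promoter drives in the intestinal epithelium. Control mice, here called C133, C134, C151 and C154, carried the floxed Neurog3f/f alleles without the recombinase. Each of the 8 mice gave 1 library of each tissue, so every group held 4 libraries.

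Cells make cholesterol from acetyl-CoA through mevalonate, farnesyl diphosphate, squalene and lanosterol, and the pathway also feeds the prenyl groups and dolichol that modify proteins. When the membrane of the endoplasmic reticulum is poor in sterol, SCAP carries SREBP2 to the Golgi, where it is cleaved and released to the nucleus to raise transcription of nearly the whole pathway, and when sterol is plentiful the INSIG proteins hold SCAP back. In the small intestine, the epithelium both takes up cholesterol from food and bile and synthesises it, with crypt cells and enterocytes both expressing the pathway.

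Libraries held 40.9 to 67.2 M counts, and levels are given as counts per M (CPM) of the scaled library, with means ± SD over the 4 libraries of a group. Neurog3, the targeted gene, had counts of 1, 0, 0 and 0 in mutant ileum against 70, 54, 50 and 27 in control ileum, and of 0, 1, 0 and 0 in mutant duodenum against 128, 175, 123 and 123 in control duodenum. Some libraries stood apart before any sterol gene was considered. Genes of the exocrine pancreas took 0.821, 17.0, 3.91 and 16.5% of the counts in mutant duodenum (mice M136, M167, M168 and M177), against 2.83, 0.00701, 1.90 and 0.00720% in control duodenum (mice C133, C134, C151 and C154). Genes of lymphoid follicles summed to 6.57 to 11 CPM in mutant ileum, against 213 and 245 CPM in ileum of control mice C134 and C154 and 15.4 and 19.4 CPM in that of control mice C133 and C151. Nothing in the labels says more of how the tissue was cut, and these are whole-tissue samples, in which fewer cells of a type and less RNA per cell cannot be told apart.

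In mutant ileum, most of the pathway was higher than in control ileum. Of the 28 genes, all of which passed the filter on low counts, 21 rose, 0 fell and 7 had no call at an adjusted p of 0.05 in edgeR's quasi-likelihood test, where 19.0% of all 18310 tested genes rose and 14.6% fell. The median log2 fold change was 0.88 over these genes, against -0.03 over all genes tested, and 13 of the 28 exceeded a log2 fold change of 1. Mutant libraries lay wholly above control libraries for 20 genes and wholly below them for 0, against 16.9 and 16% of all genes. In mutant duodenum, 10 of the 28 rose and 0 fell, where 3.44% of all 17611 genes rose and 5.11% fell, and the median log2 fold change was 0.49 against 0.02 over all genes. Here the libraries did not overlap for 13 genes above and 1 below, against 7.81 and 10.8% of all genes. Acat2, Mvk, Pmvk, Idi1, Lss, Lbr, Nsdhl and Tmem97 rose in both tissues, and Ggps1, Ebp, Sc5d, Insig2 and Stard4 had no call in either. The plot of fold changes by gene shows both tissues side by side.

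**Figure D1:**
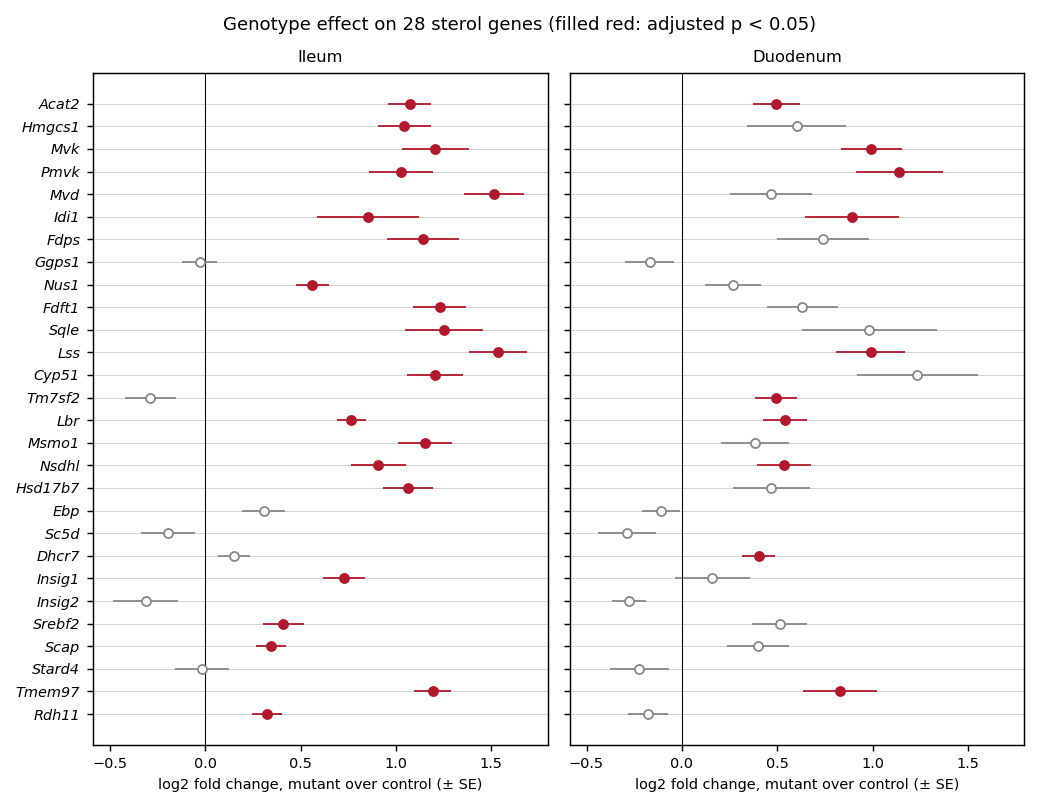
Log2 fold change of each of the 28 genes in mutant over control ileum (left) and duodenum (right), with the standard error as a bar, and filled red circles for an adjusted p under 0.05. In the ileum 21 circles are filled, all to the right of 0 and up to 1.54 for Lss, and in the duodenum 10 are filled, with Cyp51 the farthest right at 1.23 but unfilled.

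Promoters of members that moved together are shown for Hmgcs1 and Acat2 at the start of the pathway, Mvd and Lss with the largest ileal fold changes, and Insig1 of the sterol sensor. Each is 300 bases long and runs from upstream of the start of the gene to just past it, 5′ to 3′ on the gene's strand, from RefSeq on GRCm38.p6, a build other than the mm39 of the counts. Capitals mark 2 motifs on either strand, CACNCCAC, a form of the sterol response element that SREBP binds, and CCAAT, the box bound by NF-Y, so that a match on the opposite strand is the reverse complement of these letters.
Hmgcs1 (chr13:119690101-119690400, plus strand): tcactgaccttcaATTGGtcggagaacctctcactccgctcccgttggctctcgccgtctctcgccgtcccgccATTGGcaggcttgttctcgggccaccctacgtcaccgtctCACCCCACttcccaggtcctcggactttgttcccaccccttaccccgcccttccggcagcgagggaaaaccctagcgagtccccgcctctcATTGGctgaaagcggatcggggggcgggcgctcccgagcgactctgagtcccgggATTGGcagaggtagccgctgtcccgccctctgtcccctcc
Acat2 (chr17:12960676-12960975, minus strand): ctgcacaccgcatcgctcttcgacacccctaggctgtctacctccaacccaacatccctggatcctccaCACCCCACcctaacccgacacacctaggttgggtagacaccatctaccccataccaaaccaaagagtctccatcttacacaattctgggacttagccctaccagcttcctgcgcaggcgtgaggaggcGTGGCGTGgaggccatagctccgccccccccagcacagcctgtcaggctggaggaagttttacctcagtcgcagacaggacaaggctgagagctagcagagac
Mvd (chr8:122443373-122443672, minus strand): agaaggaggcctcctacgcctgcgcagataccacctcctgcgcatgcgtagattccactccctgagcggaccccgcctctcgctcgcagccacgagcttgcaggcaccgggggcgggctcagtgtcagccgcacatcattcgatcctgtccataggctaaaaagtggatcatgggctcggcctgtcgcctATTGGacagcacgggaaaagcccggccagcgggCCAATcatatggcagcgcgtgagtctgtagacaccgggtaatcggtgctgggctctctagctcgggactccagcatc
Lss (chr10:76531355-76531654, plus strand): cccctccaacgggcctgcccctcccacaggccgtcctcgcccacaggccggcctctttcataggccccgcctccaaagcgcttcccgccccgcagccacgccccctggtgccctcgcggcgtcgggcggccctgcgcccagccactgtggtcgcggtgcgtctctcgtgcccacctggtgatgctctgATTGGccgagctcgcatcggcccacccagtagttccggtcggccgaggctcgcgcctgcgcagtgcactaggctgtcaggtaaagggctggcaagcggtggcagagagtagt
Insig1 (chr5:28071162-28071461, plus strand): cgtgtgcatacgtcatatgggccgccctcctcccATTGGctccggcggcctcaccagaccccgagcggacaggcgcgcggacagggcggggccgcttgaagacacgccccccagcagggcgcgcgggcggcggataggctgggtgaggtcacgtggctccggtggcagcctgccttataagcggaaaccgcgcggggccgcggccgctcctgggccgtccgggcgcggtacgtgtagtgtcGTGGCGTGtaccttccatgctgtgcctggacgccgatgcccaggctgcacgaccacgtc

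Among these promoters, that of Hmgcs1 held the sterol response element once before the start, that of Acat2 held it 181 and 53 bases before the start, and that of Insig1 held it 9 bases before. Promoters of Mvd and Lss held CCAAT boxes but no such element in this window. The RefSeq table had 31 promoters for 24 of the 28 genes. Of these, 3 (9.68%) held CACNCCAC, against 2050 of all 32851 promoters (6.24%). CCAAT was in 22 of the 31 (71.0%) against 37.4% of all promoters, the GC box GGGCGG in 24 (77.4%) against 35.7%, and the E-box CACGTG in 7 (22.6%) against 7.15%, each counted on both strands. These matches describe letters in a window and were not related to binding.

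At the start of the pathway, both genes rose in mutant ileum. Hmgcs1, the cytosolic HMG-CoA synthase, whose promoter is printed above, had 412, 373, 406 and 402 CPM in mutant ileum (mice M136, M167, M168 and M177, the order used throughout), against 195, 142, 232 and 221 CPM in control ileum (mice C133, C134, C151 and C154). In the duodenum it had 116, 99.5, 193 and 226 CPM in the mutant mice against 85.6, 93.5, 114 and 129 CPM in the control mice. All mutant ileum libraries were above all controls and close to each other, whereas in the duodenum mutant mice M136 and M167 lay within the control range and mutant mice M168 and M177 above it. Its log2 fold change was 1.04 (SE 0.14, adjusted p = 0.000335) in ileum and 0.60 (SE 0.26, adjusted p = 0.163) in duodenum. Acat2, the thiolase that joins a pair of acetyl-CoA molecules, had 24, 22.7, 27.2 and 20.8 CPM in mutant ileum against 12.4, 10.2, 11.1 and 12.4 CPM in control ileum. It had 26.3, 21.0, 28.2 and 28 CPM in mutant duodenum against 20.2, 15.6, 20.0 and 18.4 CPM in control duodenum. The groups did not overlap in either tissue. Acat2 rose by 1.07 in log2 units (SE 0.11, adjusted p = 0.000101) in mutant ileum and by 0.50 (SE 0.12, adjusted p = 0.0361) in mutant duodenum. Acat3, a near copy of Acat2 with 97.7% identity, had 866 counts over all libraries against 16824 of Acat2, so reads could be shared between them.

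All 4 enzymes that turn mevalonate into activated isoprene rose in mutant ileum, and 3 of them in mutant duodenum. Mvk, mevalonate kinase, had 25.8, 20.2, 30.0 and 28.3 CPM in mutant ileum against 10.9, 8.21, 12.5 and 14.5 CPM in control ileum, and 19.1, 14.4, 19.2 and 22.4 CPM in mutant duodenum against 8.27, 8.21, 9.80 and 11.7 CPM in control duodenum. Mutant libraries were above all controls in both tissues. Its log2 fold change was 1.21 (SE 0.18, adjusted p = 0.000575) in ileum and 0.99 (SE 0.16, adjusted p = 0.00709) in duodenum, where it had the smallest p of the 28 genes. Pmvk, which adds the next phosphate, had 17.8, 15.4, 26.3 and 22.1 CPM in mutant ileum against 10.5, 8.14, 11.1 and 11.2 CPM in control ileum. Mutant duodenum had 16, 14.5, 20.4 and 31.3 CPM of Pmvk, against 8.63, 8.10, 11.3 and 9.59 CPM in control duodenum. No library overlapped, with mutant mouse M177 the highest in duodenum. Pmvk rose by 1.03 (SE 0.17, adjusted p = 0.00108) in mutant ileum and by 1.14 (SE 0.23, adjusted p = 0.0189) in mutant duodenum, in log2 units.

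Mvd, the decarboxylase that ends the mevalonate steps, differed most between the tissues. It had 26.8, 22.5, 35.0 and 31.4 CPM in mutant ileum against 11.3, 8.82, 9.04 and 12.2 CPM in control ileum, and 8.47, 9.60, 11.7 and 13.3 CPM in mutant duodenum against 6.21, 6.15, 7.93 and 11.2 CPM in control duodenum. The ileum libraries were far apart, while in duodenum control mouse C154 lay within the mutant range. The log2 fold change of Mvd was 1.52 (SE 0.16, adjusted p = 9.24e-05) in ileum and 0.47 (SE 0.21, adjusted p = 0.174) in duodenum. Idi1, the isomerase that makes dimethylallyl diphosphate, was lowest of the 28 per kilobase of exon in all 4 groups, and had 2.32, 2.55, 3.07 and 2.29 CPM in mutant ileum against 1.02, 1.09, 2.30 and 1.39 CPM in control ileum, and 2.29, 1.77, 2.17 and 2.99 CPM in mutant duodenum against 1.30, 0.826, 1.32 and 1.56 CPM in control duodenum. Control ileum of mouse C151 overlapped the mutants, and the duodenum groups did not overlap. Idi1 rose by 0.85 in log2 units (SE 0.27, adjusted p = 0.0302) in mutant ileum and by 0.89 (SE 0.25, adjusted p = 0.0490) in mutant duodenum. Its level is uncertain, because 3 named loci match its transcript at up to 100% identity and reads that fit several loci may have been left out of the counts.

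Of the prenyl branch, Fdps and Nus1 rose in mutant ileum and Ggps1 had no call. Fdps, farnesyl diphosphate synthase, had 8.19 to 11.8 CPM in mutant ileum against 3.18 to 5.66 CPM in control ileum, and rose by 1.14 in log2 units (SE 0.19, adjusted p = 0.00108). In duodenum it had 5.33 to 9.66 CPM in mutants against 2.72 to 4.98 CPM in controls, a log2 fold change of 0.74 (SE 0.24, adjusted p = 0.0758). Both tissues showed no overlap for Fdps, but 6 loci match its transcript at up to 100% identity, so that its counts too are uncertain. Among these loci, Gm43738 lies over Fdps itself and shares 26.7% of its exon bases on the same strand. Nus1, a subunit of the enzyme that makes dolichol chains, had 106 to 125 CPM in mutant ileum against 74.6 to 86.8 CPM in control ileum, a log2 fold change of 0.56 (SE 0.09, adjusted p = 0.000784). In duodenum the Nus1 groups overlapped, at 115 to 171 CPM in mutants against 92.4 to 133.95 CPM in controls. Ggps1, which makes geranylgeranyl diphosphate for protein prenylation, had 27.2 to 34.1 CPM in mutant ileum against 31.0 to 34.6 CPM in control ileum, and 24.9 to 37.8 CPM in mutant duodenum against 32.5 to 37.8 CPM in control duodenum. Its log2 fold changes were -0.03 (SE 0.09) and -0.17 (SE 0.13) in ileum and duodenum.

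The 3 enzymes that form squalene and close it to lanosterol all rose in mutant ileum. Fdft1, squalene synthase, had 98.9, 80.9, 105 and 99.7 CPM in mutant ileum against 40.9, 31.5, 44.6 and 50.4 CPM in control ileum, and 24, 27.5, 37.0 and 42.8 CPM in mutant duodenum against 21.1, 16.6, 24.9 and 22.9 CPM in control duodenum. In ileum every mutant was above every control, and in duodenum mutant mouse M136 lay within the control range. Fdft1 had a log2 fold change of 1.23 (SE 0.14, adjusted p = 0.000141) in ileum and 0.63 (SE 0.19, adjusted p = 0.0603) in duodenum. Exons of Ctsb, on the opposite strand, overlap 18.3% of Fdft1's exons and Ctsb had 599226 counts over all libraries against 42792 of Fdft1, so the 2 genes cannot be told apart there if counting ignored strand. Sqle, squalene epoxidase, had 238, 210, 248 and 264 CPM in mutant ileum against 94.9, 62.7, 125 and 130 CPM in control ileum, and 45.4, 37.0, 86.6 and 110 CPM in mutant duodenum against 27.9, 31.7, 43.9 and 38.7 CPM in control duodenum. Mutant mice M168 and M177 were high in duodenum, while mouse M167 lay within the control range there. Sqle rose by 1.25 in log2 units (SE 0.20, adjusted p = 0.00135) in mutant ileum and had a log2 fold change of 0.98 (SE 0.35, adjusted p = 0.118) in duodenum.

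Lss, lanosterol synthase, whose promoter is printed above, had the largest fold change of the 28 genes in ileum. It had 64.5, 72.2, 94.3 and 91.6 CPM in mutant ileum against 28.7, 21.9, 31.2 and 31.9 CPM in control ileum, and 32.5, 31.5, 42.7 and 55.0 CPM in mutant duodenum against 18.7, 17.2, 24.1 and 22.1 CPM in control duodenum. The groups did not overlap in either tissue. Lss rose by 1.54 in log2 units (SE 0.15, adjusted p = 7.46e-05) in mutant ileum and by 0.99 (SE 0.18, adjusted p = 0.0119) in mutant duodenum. The plot of 9 genes by library shows Lss beside 8 other members.

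**Figure D2:**
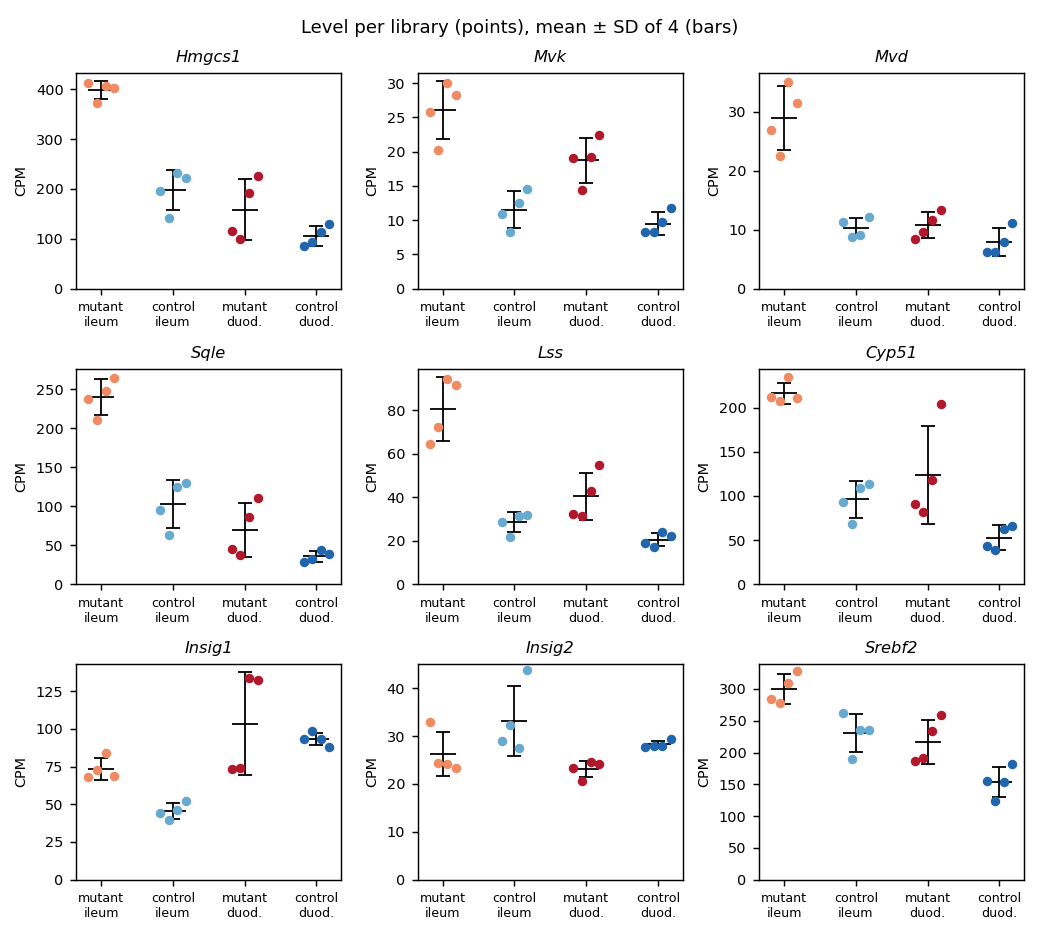
CPM of 9 of the genes in each library (points) for mutant ileum, control ileum, mutant duodenum and control duodenum, with the mean ± SD of 4 libraries as bars and every axis starting at 0. Mutant ileum is above control ileum without overlap for all panels but Insig2, and mutant duodenum spreads widely for Hmgcs1, Sqle, Cyp51 and Insig1.

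Of the 9 enzymes after lanosterol, 5 rose in mutant ileum (Cyp51, Lbr, Msmo1, Nsdhl and Hsd17b7) and 4 in mutant duodenum (Tm7sf2, Lbr, Nsdhl and Dhcr7). Cyp51, lanosterol demethylase, had 207 to 234 CPM in mutant ileum against 68.2 to 113 CPM in control ileum, a rise of 1.20 in log2 units (SE 0.14, adjusted p = 0.000189). In duodenum it had 81.7 to 204 CPM in mutants against 38.8 to 66.5 CPM in controls, without overlap, and its log2 fold change of 1.23 (SE 0.32) had an adjusted p of 0.0510, just outside the threshold. Lbr and Tm7sf2 both encode reductases of the next step, and Lbr is also a protein of the inner nuclear membrane. Lbr had 181, 180, 176 and 189 CPM in mutant ileum against 115, 109, 109 and 103 CPM in control ileum, and 106, 104, 123 and 148 CPM in mutant duodenum against 80.4, 82.9, 87.5 and 83.0 CPM in control duodenum. It did not overlap in either tissue and rose by 0.77 in log2 units (SE 0.08, adjusted p = 8.06e-05) in mutant ileum and by 0.54 (SE 0.12, adjusted p = 0.0232) in mutant duodenum.

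Tm7sf2 had fold changes of opposite sign in the 2 tissues. It had 14.1, 14.4, 16.3 and 17.8 CPM in mutant ileum against 22.0, 15.6, 18 and 22.4 CPM in control ileum, and 15.8, 17.7, 15.6 and 19.4 CPM in mutant duodenum against 12.5, 11.1, 13.0 and 12.6 CPM in control duodenum. Mutants were above every control in duodenum and mostly below them in ileum, where control mouse C134 overlapped. Its log2 fold change was -0.29 (SE 0.13, adjusted p = 0.120) in ileum and 0.49 (SE 0.11, adjusted p = 0.0263) in duodenum. Vps51, on the same strand, shares 12.1% of Tm7sf2's exon bases, so part of its counts may be uncertain.

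Msmo1, the sterol methyl oxidase, had 174 to 250 CPM in mutant ileum against 78.9 to 112 CPM in control ileum and rose by 1.15 in log2 units (SE 0.14, adjusted p = 0.000208). Its duodenum groups overlapped at 84.1 to 157 CPM in mutants against 88.7 to 121 CPM in controls. Nsdhl, the dehydrogenase that removes the oxidised methyl carbon, had 65.8, 49.6, 61.4 and 59.8 CPM in mutant ileum against 30.9, 24.7, 32.5 and 40.7 CPM in control ileum. In duodenum Nsdhl had 44.8, 36.6, 44.5 and 56.4 CPM in mutants against 29.2, 26.9, 36.5 and 34.4 CPM in controls. Neither tissue overlapped, though mutant mouse M167 was just above the highest control in duodenum. Nsdhl rose by 0.91 (SE 0.14, adjusted p = 0.000927) in mutant ileum and by 0.53 (SE 0.14, adjusted p = 0.0435) in mutant duodenum, in log2 units. Hsd17b7, the ketoreductase of the same steps, had 69.7 to 106 CPM in mutant ileum against 39.1 to 50.1 CPM in control ileum, a rise of 1.06 (SE 0.13, adjusted p = 0.000234), and 27.4 to 57.7 CPM in mutant duodenum against 31.0 to 36.4 CPM in control duodenum.

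The last enzymes rose little or had no call. Ebp, the sterol isomerase, had 57.3, 41.8, 53.8 and 53.5 CPM in mutant ileum against 47.6, 43.2, 36.5 and 43.1 CPM in control ileum, and 65.9, 63.0, 68.8 and 69.6 CPM in mutant duodenum against 79.1, 61.7, 71.6 and 78.2 CPM in control duodenum. The groups overlapped in both tissues, with log2 fold changes of 0.31 (SE 0.11, adjusted p = 0.0590) in ileum and -0.11 (SE 0.10, adjusted p = 0.501) in duodenum. Sc5d, the sterol desaturase, had 76.5 to 107 CPM in mutant ileum against 97.3 to 140 CPM in control ileum, and 94.3 to 168.06 CPM in mutant duodenum against 146 to 172 CPM in control duodenum, with log2 fold changes of -0.19 (SE 0.14) in ileum and -0.29 (SE 0.15) in duodenum. Dhcr7, which reduces dehydrocholesterol to cholesterol, had 36.7, 34.6, 39.8 and 37.3 CPM in mutant ileum against 34.3, 36.3, 31.5 and 34.6 CPM in control ileum. It had 50.5, 45.8, 48.7 and 54.7 CPM in mutant duodenum against 36.5, 37.0, 39.2 and 39.9 CPM in control duodenum. The duodenum groups were apart and the ileum groups overlapped, with log2 fold changes of 0.15 (SE 0.08, adjusted p = 0.196) in ileum and 0.40 (SE 0.09, adjusted p = 0.0234) in duodenum.

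Of the sterol sensor, Insig1, Srebf2 and Scap rose in mutant ileum and none of the 4 genes was called in duodenum. Insig1, which holds SCAP in the endoplasmic reticulum and is itself a target of SREBP2, had 67.8, 73.0, 84.1 and 69.0 CPM in mutant ileum against 44.1, 39.3, 46.1 and 51.9 CPM in control ileum, and 73.4, 74.2, 134.02 and 132.6 CPM in mutant duodenum against 93.3, 98.5, 93.4 and 88.3 CPM in control duodenum. In duodenum mutant mice M136 and M167 were below all controls and mutant mice M168 and M177 above all, while in ileum all mutants were above. Insig1 had a log2 fold change of 0.73 (SE 0.11, adjusted p = 0.000628) in ileum and 0.16 (SE 0.20, adjusted p = 0.622) in duodenum. Insig2, which has the same task, had 23.2 to 33.0 CPM in mutant ileum against 27.6 to 43.8 CPM in control ileum, and 20.6 to 24.5 CPM in mutant duodenum against 27.7 to 29.5 CPM in control duodenum. It was the 1 gene with all mutant duodenum libraries below all controls, at a log2 fold change of -0.28 (SE 0.09, adjusted p = 0.0768), and had -0.31 (SE 0.17, adjusted p = 0.178) in ileum.

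Srebf2, which encodes SREBP2, had 284, 278, 310 and 329 CPM in mutant ileum against 262, 191, 236 and 236 CPM in control ileum, and 187, 191, 233 and 258 CPM in mutant duodenum against 156, 124, 153 and 182 CPM in control duodenum. Mutants were above all controls in both tissues, with log2 fold changes of 0.41 (SE 0.11, adjusted p = 0.0138) in ileum and 0.51 (SE 0.14, adjusted p = 0.0523) in duodenum. Scap, the escort of SREBP2, had 77.0, 75.4, 74.5 and 79.0 CPM in mutant ileum against 68.6, 57.5, 59.6 and 60.3 CPM in control ileum, and 60.9, 82.0, 55.8 and 90.2 CPM in mutant duodenum against 55.2, 46.9, 55.0 and 64.4 CPM in control duodenum. Only the ileum groups of Scap were apart. Its log2 fold change was 0.35 (SE 0.08, adjusted p = 0.00697) in ileum and 0.40 (SE 0.16, adjusted p = 0.137) in duodenum.

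Of the other targets, Tmem97 rose in both tissues, Rdh11 rose in mutant ileum and Stard4 had no call. Tmem97, a sterol-binding protein of the endoplasmic reticulum, had 28.5, 22.9, 29.0 and 28.2 CPM in mutant ileum against 12.3, 12.4, 12.2 and 11.6 CPM in control ileum, and 22.9, 38.8, 32.5 and 48.8 CPM in mutant duodenum against 21.1, 18, 21.9 and 20.3 CPM in control duodenum. Mutants were above all controls in both tissues, by little in duodenum of mouse M136. Its rise of 1.19 in log2 units in ileum (SE 0.10, adjusted p = 3.61e-05) had the smallest p of the 28 genes, and its rise in duodenum was 0.83 (SE 0.19, adjusted p = 0.0310). Rdh11, a retinal reductase, had 45.7, 43.4, 46.3 and 42.7 CPM in mutant ileum against 36.4, 38.3, 34.3 and 36.3 CPM in control ileum, and 64.8, 57.5, 69.0 and 67.5 CPM in mutant duodenum against 74.2, 68.8, 67.4 and 85.1 CPM in control duodenum. Its ileum groups were apart and its duodenum groups overlapped, with log2 fold changes of 0.33 (SE 0.08, adjusted p = 0.00888) in ileum and -0.18 (SE 0.10, adjusted p = 0.275) in duodenum. Stard4, a soluble carrier of cholesterol, had 177.06 to 264 CPM in mutant ileum against 192 to 270 CPM in control ileum, and 105 to 149 CPM in mutant duodenum against 127 to 192 CPM in control duodenum. Its groups overlapped in both tissues, with log2 fold changes of -0.02 (SE 0.14) in ileum and -0.22 (SE 0.16) in duodenum.

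Many of the 28 genes were high or low in the same mice. For each library, the median over the 28 genes of its log2 level minus the control mean of that tissue was 0.77, 0.69, 1.01 and 0.82 in mutant ileum (mice M136, M167, M168 and M177), against 0.01, -0.21, 0.03 and 0.16 in control ileum (mice C133, C134, C151 and C154). In duodenum it was 0.30, 0.24, 0.60 and 0.76 in the mutant mice, against -0.04, -0.16, 0.07 and 0.09 in the control mice. Mutants were thus above controls in both tissues, with the mutant ileum libraries closer together than the mutant duodenum libraries relative to their distance from controls. Among mutants, mouse M167 was the lowest for 18 genes in ileum and 19 in duodenum, whereas the highest was mouse M168 for 16 genes in ileum and mouse M177 for 18 in duodenum. Among controls, mouse C134 was the lowest for 17 genes in ileum and 16 in duodenum. Mutant mice M167 and M177, which had the largest shares of pancreas transcripts in duodenum, were thus the lowest and the highest of the 4 there. The part of pancreas tissue in the duodenal levels was not tested.

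**Figure D3:**
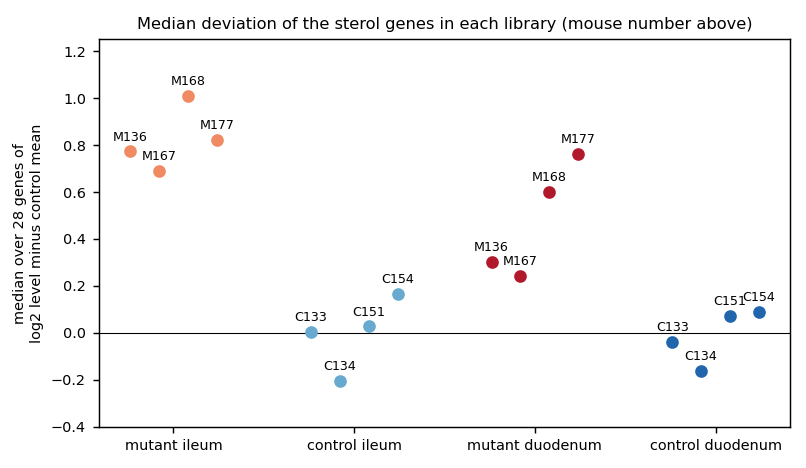
Median over the 28 genes of the log2 level of each library minus the mean of the control libraries of its tissue, with the mouse number above each point. Mutant ileum lies at 0.69 to 1.01 and mutant duodenum at 0.24 to 0.76, all above the control libraries of their tissue, which lie at -0.21 to 0.16.

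Some marker lists of other cells moved with these groups. In ileum, 12 of 12 proliferation markers rose in mutants (906 to 1231 CPM summed, against 600 to 721 CPM in controls, with a median log2 fold change of 1.01) and 10 of 12 follicle markers fell. Of 12 enterocyte markers 1 rose and 2 fell (11807 to 18033 CPM in mutants against 20441 to 27688 CPM in controls). Their median log2 fold change was -0.15, from -1.31 to 0.40. Much of the gap in the sums came from Anpep, at a mean of 3795 CPM in mutants against 9572 CPM in controls. Krt20, Cdx1, Cdh1 and Cdh17 had higher means in mutant ileum. In duodenum, 1 of 12 proliferation markers rose (754 to 1047 CPM in mutants against 628 to 708 CPM in controls). All 12 had positive log2 fold changes there, from 0.15 to 0.45, with a median of 0.29 against 0.02 over all genes. Of 6 tested follicle markers 1 fell in duodenum (15 to 35.5 CPM for all 12 in mutants against 19.8 to 129 CPM in controls). None of 12 enterocyte markers was called there (18190 to 28100 CPM in mutants against 23943 to 27514 CPM in controls). Of 10 smooth muscle markers, 2 rose and 1 fell in mutant ileum and 1 rose in mutant duodenum. The ileal counts of enterocyte and smooth muscle markers lie near the shares of all genes, 19.0% higher and 14.6% lower. In duodenum 3.44% of all genes rose and 5.11% fell, so 1 call alone says little of a list this short. All 10 of 10 enteroendocrine markers fell in both tissues. None of the 13 pancreas markers was called in either genotype comparison, with sums of 9656 to 215591 CPM in mutant duodenum against 74.8 to 34483 CPM in control duodenum, and of 237 to 3165 CPM in mutant ileum against 103 to 1449 CPM in control ileum. No proliferation marker was at 0 in any library, at most 3 follicle markers were at 0 in a mutant duodenum library, and at most 5 pancreas markers were at 0 in a control ileum library. Without control mice C134 and C154, 18 of the 21 ileal rises were called, and without mutant mice M167 and M177, 20 of the 21. The part of dividing cells in these results was not tested.

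The number of duodenal calls depended on single libraries. Leaving out control mouse C133, C134, C151 or C154 left 2, 2, 3 and 3 rises in place of 10, and leaving out mutant mouse M177 left 4, while the median log2 fold change stayed between 0.40 and 0.57 under every mouse left out. With the pancreas genes as a covariate, Mvk alone was called, at a median of 0.48, and with those genes taken out of the counts all 10 calls were kept. Taking them out leaves any sterol transcripts of pancreas cells in the counts, so it cannot show the part of those cells.

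The difference in genotype effect between the tissues was tested as the ileal minus the duodenal log2 fold change. Of the 28 genes, 3 had a higher difference (Mvd, Acat2 and Rdh11) and 1 a lower one (Tm7sf2), where 4.86% of all 19289 genes were higher and 4.13% lower. That of Mvd was 1.03 (SE 0.28, adjusted p = 0.0334), that of Acat2 was 0.56 (SE 0.17, adjusted p = 0.0488) and that of Rdh11 was 0.49 (SE 0.12, adjusted p = 0.0276). That of Tm7sf2 was -0.80 (SE 0.17, adjusted p = 0.0162). The median difference was 0.26 against -0.06 over all genes, and 20 of the 28 had the larger fold change in ileum. With the mouse as a block, since the same mice gave both tissues, 8 genes were higher and 1 lower, adding Fdft1, Lss, Msmo1, Hsd17b7 and Ebp to the 4. Without a block, leaving out control mouse C133, C151 or C154 left 0 calls, control mouse C134 or mutant mouse M136 left Tm7sf2 alone, and mutant mouse M168 left 1 higher and 1 lower. Of the 12 proliferation markers, 8 had a higher difference too, and their part in this result was not tested.

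Some genes differed between the regions, in either direction. In ileum over duodenum of mutant mice, 13 of the 28 genes were higher and 3 lower, where 12.9% of all 17852 genes were higher and 18.2% lower. In ileum over duodenum of control mice, 10 were higher and 7 lower, where 28% of all 18217 genes were higher and 30.3% lower, so the counts in control mice lie near the shares of all genes. Hmgcs1, Fdft1, Sqle, Lss, Cyp51, Lbr, Hsd17b7, Srebf2 and Stard4 were higher in ileum in both genotypes, and Ebp and Rdh11 lower in both. Of these calls in mutant mice, Ebp was lost in 9 of 12 alternatives, among them each single mutant mouse left out. Cyp51 and Srebf2 were lost without M136, M167 or M168. With the pancreas genes as a covariate, Hmgcs1, Sqle, Cyp51, Hsd17b7, Srebf2, Stard4, Ebp and Rdh11 lost their calls in mutant mice. Fdft1, Lss and Lbr kept theirs. In control mice Lss was lost without C133. The plot of region differences by gene shows the squalene genes on one side and Insig1, Rdh11 and Tmem97 on the other.

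**Figure D4:**
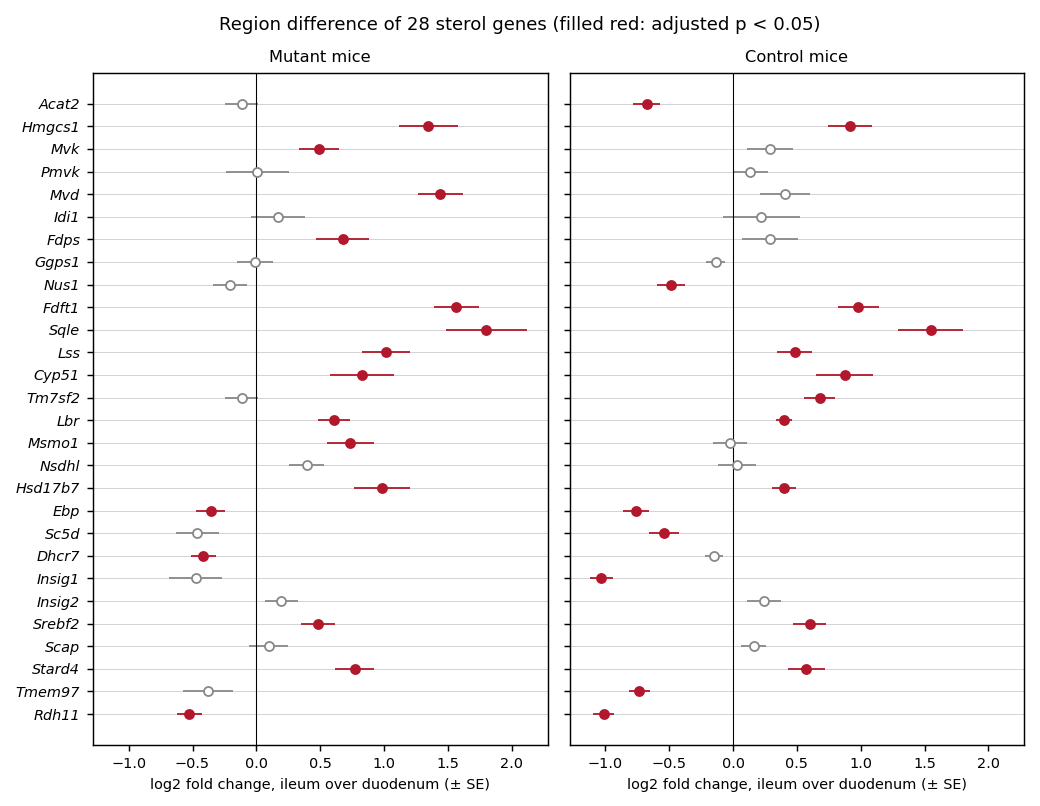
Log2 fold change of each of the 28 genes in ileum over duodenum, in mutant mice (left) and control mice (right), with the standard error as a bar, and filled red circles for an adjusted p under 0.05. Sqle lies farthest right in both panels, at 1.80 in mutants and 1.55 in controls, and Insig1 and Rdh11 lie farthest left in controls, at -1.03 and -1.01.

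Sqle was the member with the largest region difference, at 1.80 in log2 units in mutant mice (SE 0.32, adjusted p = 0.00258) and 1.55 in control mice (SE 0.25, adjusted p = 0.00119), from the values by library given above, in which no ileum library of a genotype overlapped its duodenum libraries. Fdft1 differed by 1.57 in mutant mice (SE 0.17, adjusted p = 9.12e-05) and 0.98 in control mice (SE 0.16, adjusted p = 0.000507). Hmgcs1 differed by 1.35 (SE 0.23, adjusted p = 0.00139) in mutant mice and 0.92 (SE 0.17, adjusted p = 0.00141) in control mice. Mvd differed by 1.44 in mutant mice (SE 0.17, adjusted p = 0.000159) and by 0.40 in control mice (SE 0.20, adjusted p = 0.102). Each mouse gave both regions, and with the mouse as a block Mvd was called in control mice too, at 0.43 (adjusted p = 0.0168). The block likewise added Mvk in control mice, at 0.28 (adjusted p = 0.0360), and Nsdhl, at 0.40 (adjusted p = 0.0124), and Sc5d, at -0.45 (adjusted p = 0.00556), in mutant mice. Lss differed by 1.01 (SE 0.19, adjusted p = 0.00231) in mutant mice and by 0.48 (SE 0.14, adjusted p = 0.0124) in control mice, where ileum of C134 lay within the duodenum range. In control mice, Lbr was higher in ileum by 0.40 (SE 0.06, adjusted p = 0.000404).

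Genes lower in ileum of control mice included Rdh11, at -1.01 in log2 units (SE 0.08, adjusted p = 4.54e-06), Insig1, at -1.03 (SE 0.09, adjusted p = 5.21e-06), Tmem97, at -0.73 (SE 0.09, adjusted p = 3.86e-05), Ebp, at -0.76 (SE 0.10, adjusted p = 0.000106), and Acat2, at -0.68 (SE 0.11, adjusted p = 0.000343). In mutant mice, Rdh11 was at -0.52 (SE 0.10, adjusted p = 0.00220) and Ebp at -0.36 (SE 0.11, adjusted p = 0.0315), while Insig1 was at -0.48 (SE 0.21, adjusted p = 0.103), Tmem97 at -0.38 (SE 0.20, adjusted p = 0.164) and Acat2 at -0.11 (SE 0.13, adjusted p = 0.543), without a call. Smooth muscle markers were higher in ileum for 9 of 10 in mutant mice and 10 of 10 in control mice, and 13 of 13 pancreas markers were lower in ileum of mutant mice. Without M177, 1 gene in place of 3 was lower in ileum of mutant mice. With the pancreas genes as a covariate, 4 genes (Mvd, Fdft1, Lss and Lbr) were higher and 0 lower in ileum of mutant mice. All 17 calls of control mice were kept. Of 12 proliferation markers, 6 were higher and 0 lower in ileum of mutant mice, with a median log2 fold change of 0.45. In control mice 0 were higher and 6 lower, with a median of -0.26. Of 6 adipocyte markers, 5 were tested in mutant mice, where 4 were higher and 0 lower in ileum. In control mice 3 of the 6 were higher and 1 lower. Up to 5 adipocyte markers were at 0 in a control duodenum library and up to 4 in a mutant one. The part of smooth muscle, dividing cells or adipocytes in these region differences was not tested.

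Per kilobase of annotated exon, Hmgcs1 had the highest mean level of the 28 in ileum of both genotypes. In mutant ileum it had 86.7 CPM per kb, followed by Cyp51 at 49.0, Sqle at 43.3 and Srebf2 at 41.8 CPM per kb, and in control ileum 43.0 CPM per kb, followed by Stard4 at 39.7 and Srebf2 at 32.2 CPM per kb. The lowest was Idi1, at 0.729 CPM per kb in mutant ileum and 0.413 in control ileum. Next lowest was Fdps, at 2.45 CPM per kb in mutant ileum and 1.14 in control ileum. Other loci match both transcripts at up to 100% identity. In mutant duodenum Hmgcs1 had 34.5 CPM per kb and Insig1 33.5, and in control duodenum Sc5d had 33.6 and Ebp 31.5 CPM per kb against 22.9 of Hmgcs1. These lengths join the exons of all annotated transcripts of a gene, so the order depends on the annotation. Msmo1, for example, had 6.14 kb of exon against 2044 bases in its longest coding transcript, and Sqle 5.55 kb against 2758 bases.

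The surrounding pathway was read from 4 further lists. Of 12 enzymes of protein prenylation, of the processing of prenylated proteins (Rce1, Zmpste24 and Icmt), and of dolichol and ubiquinone synthesis, 8 rose and 0 fell in mutant ileum (median log2 fold change 0.38), where 19.0% of all genes rose and 14.6% fell. In mutant duodenum 0 were called (median 0.05), where 3.44% of all genes rose and 5.11% fell. Pdss1 and Pdss2, the subunits that build the tail of ubiquinone, averaged 39.3 ± 4.51 and 21.8 ± 3.74 CPM in mutant ileum, against 20.0 ± 0.788 and 13.3 ± 0.583 CPM in control ileum. Their log2 fold changes were 1.0 (SE 0.10, adjusted p = 7.40e-05) and 0.74 (SE 0.12, adjusted p = 0.00115). Rabggtb, a subunit of the transferase that prenylates Rab proteins, averaged 16.3 ± 0.883 CPM in mutant ileum against 11.4 ± 0.578 CPM in control ileum and rose by 0.54 (SE 0.09, adjusted p = 0.00138). Of 14 genes of fatty acid synthesis and desaturation, 8 rose and 1 fell in mutant ileum (median 0.48), and 1 rose and 1 fell in mutant duodenum (median 0.22), against the same shares of all genes as for the prenylation enzymes. Elovl6, which elongates fatty acids, rose by 0.74 in ileum (SE 0.11, adjusted p = 0.000599), Acly, which makes cytosolic acetyl-CoA, by 0.58 (SE 0.11, adjusted p = 0.00212), and Acaca, acetyl-CoA carboxylase, by 0.60 (SE 0.12, adjusted p = 0.00379). In mutant duodenum Acaca rose by 0.50 (SE 0.12, adjusted p = 0.0315), while Me1, malic enzyme, fell to 44.0 ± 23.2 CPM against 127 ± 20.5 CPM in controls, a log2 fold change of -1.51 (SE 0.35, adjusted p = 0.0413). Me1 went the other way in ileum, at 47.4 ± 10.0 CPM in mutants against 27.5 ± 10.5 CPM in controls.

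Of 16 genes of sterol efflux, esterification and the LXR receptors, 0 rose, 7 fell and 9 had no call in mutant ileum (median -0.28), where 14.6% of all genes fell. In mutant duodenum 0 rose, 2 fell and 14 had no call (median -0.05), where 5.11% of all genes fell. The esterification enzymes Soat1 and Soat2 were called in neither tissue. Abcg5, a subunit of the transporter that returns sterols to the gut lumen, averaged 46.3 ± 15.3 CPM in mutant ileum against 130 ± 27.6 CPM in control ileum and fell by 1.46 in log2 units (SE 0.25, adjusted p = 0.00270). In duodenum it averaged 153.8 ± 41.2 CPM in mutants against 253 ± 11 CPM in controls and fell by 0.70 (SE 0.18, adjusted p = 0.0388). Abcg1, a sterol exporter, averaged 7.82 ± 1.80 CPM in mutant ileum against 18.1 ± 1.61 CPM in control ileum, a log2 fold change of -1.18 (SE 0.16, adjusted p = 0.000319), and Cyp27a1, which makes an oxysterol, averaged 8.91 ± 1.45 CPM in mutant ileum against 20.2 ± 4.48 CPM in control ileum, a log2 fold change of -1.15 (SE 0.17, adjusted p = 0.000642). Nr1h3, which encodes the receptor LXR alpha, fell in mutant duodenum to 33.5 ± 3.06 CPM against 52.2 ± 10.4 CPM in controls, a log2 fold change of -0.63 (SE 0.14, adjusted p = 0.0236). Of 10 other genes around the sterol sensor, which process SREBP or degrade sensor proteins or, as Srebf1, encode the related factor SREBP1, 2 rose and 0 fell in mutant ileum, a share near the 19.0% of all genes that rose there. In mutant duodenum 0 rose and 1 fell, where 5.11% of all genes fell. Mbtps2, a protease that cleaves SREBP, rose in mutant ileum by 0.47 in log2 units (SE 0.11, adjusted p = 0.00649), and Erlin1, a membrane protein of the endoplasmic reticulum, fell in mutant duodenum by 0.85 (SE 0.18, adjusted p = 0.0232).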

How the data were processed

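The deposited values are the authors' raw counts per gene in 16 libraries, for 55359 Ensembl identifiers. Per the submitters' processing notes, the authors used mm39 and the tools HTSeq 0.6.1p1, STAR 2.5.3a, cutadapt 1.10 and Bowtie2 2.2.8. The kit marks strand, but which annotation release and strand option were used in counting is not given in the sources used here. GENCODE release M21 gave names to 52083 identifiers, and 3276 without one held 1.02% of counts.

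Each tissue, or each genotype for the region contrasts, was fitted with edgeR 4.0.16 (limma 3.58.1, R 4.3.3), using filterByExpr, trimmed mean of M values scaling and the robust quasi-likelihood F test, and the difference between tissues was fitted on all 16 libraries. Adjusted p-values are Benjamini-Hochberg values over every tested gene, called under 0.05. The tests were first checked on simulated counts, drawn independently for each gene and library. These held neither a link between the tissues of a mouse nor a pancreas content shared by many genes, so the check does not cover those features. The labels give both tissues the same 8 mouse numbers, and residuals of the same mouse correlated at r of 0.22 to 0.48, with 7 of 8 duodenum libraries closest to their own mouse's ileum, so the mouse was also used as a block.

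The genes and lists were chosen with earlier results of these data known. Values in every library are given for Hmgcs1, Sqle, Insig1, Srebf2 and Scap, and for the genes of smallest p, up to 10 in duodenum, 4 in ileum, 3 for the difference between tissues and 6 in each region contrast. Of each pathway list, genes of smallest p that passed the threshold are named, up to 3 per comparison. Near copies were transcripts of at least 90% identity over 500 bases. Alternatives were DESeq2 1.42.0 and its size factors, other count filters, libraries left out, all libraries in 1 fit, pancreas genes left out or as a covariate, and the mouse block. P-values weigh each difference against the spread between the 4 mice of each group. Fits of the regions and of the difference between tissues without a block leave out that the same mice gave both tissues. Values of 1 gene counted in these lists are not reported here.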

Additional observations from a re-analysis of the deposited data

Results flagged for a closer look

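In 5 of 112 groups of 4 libraries, 1 library stood far from the other 3, where chance alone flags about 1 in 20 groups. Fdps had 9.66 CPM in duodenum of mutant mouse M177 (others 5.33 to 5.78 CPM), and Tmem97 had 22.9 CPM in ileum of mutant mouse M167 (others 28.2 to 29.0 CPM). Insig2 had 33.0 CPM in ileum of mutant mouse M136 (others 23.2 to 24.3 CPM) and 29.5 CPM in duodenum of control mouse C154 (others 27.7 to 28 CPM). Ggps1 had 34.6 CPM in ileum of control mouse C133 (others 31.0 to 31.4 CPM).

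The genotype effect differed between ileum and duodenum, by the test of that difference, for Mvd (1.03 in log2 units, ileum minus duodenum), Acat2 (0.559), Rdh11 (0.485) and Tm7sf2 (-0.798). Their calls were lost in 8, 11, 7 and 5 of 17 alternatives, in that order.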

How the results depend on the processing

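Of the 21 ileal rises, 18 were called under each of the 17 alternatives and Idi1, Srebf2 and Scap were not. Of the 17 region calls in control mice, 16 were called under each alternative, as were 4 of the 16 in mutant mice, 0 of the 10 duodenal rises and 0 of the 4 differences between tissues. No called gene changed sign under any alternative run. Among values with no call, 57 of 1109 changed sign and 0 of those were called. With 1 mouse left out, duodenal rises ranged from 2 to 11, ileal falls from 0 to 1, higher differences between tissues from 0 to 3, lower ones from 0 to 1, and genes lower in mutant ileum than mutant duodenum from 1 to 3. Without control mice C134 and C154, 0 duodenal rises and 0 higher and 0 lower differences between tissues were called. Without mutant mice M167 and M177, these were 5, 1 and 0, with 4 of the original duodenal rises among the 5, and the median region difference in mutant mice was 0.46 in place of 0.29. With pancreas genes as a covariate, 1 duodenal rise, and 4 higher and 0 lower genes in mutant ileum over duodenum, were called. DESeq2's Wald test called 1 duodenal fall, Insig2. The replicate block (the mouse) gave 8 higher differences between tissues in place of 3, and changed no count of region calls by more than 1.5 times. The cause of these changes was not tested, except that fits with mice left out hold fewer samples. Limits: 4 mice per group, whole tissue, and counts whose handling of strand and repeated loci is not known.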
